A study of Mus musculus with 40 samples.

Results

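The genes described here encode the subunits of oxidative phosphorylation (OXPHOS) that are written in the nuclear genome. They were taken from the RNA-seq table by symbol: symbols starting with Ndufa, Ndufb, Ndufc, Ndufs or Ndufv plus a digit, with Uqcr, with Cox4 to Cox8 or with Atp5, together with Sdha, Sdhb, Sdhc and Sdhd, leaving out pseudogenes and assembly factors. This gave 84 of the 21950 genes of the table, of which 37 belong by symbol to complex I, 4 to complex II, 8 to complex III, 18 to complex IV and 17 to ATP synthase (complex V). The symbol rule uses no measured value, but the members were chosen with earlier results of these data known. The table held 24 libraries in 8 groups of 3, all from mouse CD4+ T cells. Conventional T cells (Tconvs) and thymus-derived regulatory T cells (tTregs, nTreg in the labels) were sorted from the spleen of Foxp3-GFP reporter mice (C57BL/6 background, aged 2 to 4 months) and were either resting or activated. Induced regulatory T cells (iTregs) were made from naive CD4+ T cells of 6 week old mice by 4 days of anti-CD3 and anti-CD28 stimulation with 2 ng/ml TGF-β and IL-2, were sorted on the Foxp3 reporter, and were rested for 1 day in IL-2. These resting iTregs were compared with iTregs restimulated through CD3 and CD28 alone, with an inhibitor of the ORAI calcium channel, or with cyclosporin A (CsA), which blocks calcineurin. The inhibitor doses and the length of activation were not given in the sources used here. Every group therefore carried a Foxp3 reporter, and the iTregs differed from the other cells in culture, TGF-β and mouse age as well as in lineage, so these cannot be told apart.

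OXPHOS complexes sit in the inner mitochondrial membrane. Complex I and complex II pass electrons from NADH and succinate to ubiquinone, complex III passes them to cytochrome c, complex IV passes them to oxygen, and ATP synthase uses the proton gradient that the complexes I, III and IV build. Quiescent T cells have few active mitochondria, activated T cells enlarge their mitochondrial mass, and regulatory T cells are known to lean on respiration.

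Reads assigned to genes ranged from 5256800 to 15685234 per library, and from 5256800 to 9893053 in the tTreg libraries. Foxp3 read 7218 to 7767 normalized counts in resting tTregs, 1178 to 1338 in resting iTregs and 9.65 to 11.3 in resting Tconvs. The T cell marker sum was 21098 or more in every library. Summed markers of other cells stayed low, at 99.0 to 236 for CD8 T cells, 16.0 to 136 for B cells, 12.9 to 117 for myeloid cells, 0 to 139 for NK cells and 0.708 to 13.6 for erythroid cells, and the B cell gene Ms4a1 was at 0 in every library. Some sums moved with the groups. The myeloid sum was 32.9 to 45.0 in resting and 101 to 117 in activated Tconvs, and 16.9 to 23.9 and 48.5 to 56.8 in tTregs. The NK sum was 60.0 to 89.5 in resting and 26.0 to 38.9 in activated Tconvs, 0 in resting tTregs, 20.2 to 34.9 in resting iTregs, 51.5 to 69.5 in restimulated ones and 121 to 139 with CsA. In the iTreg groups this sum was Klrc1 alone, since the other NK markers, Ncr1 and Klrb1c, were at 0. The B cell sum was 20.2 to 31.9 in resting Tconvs and 128 to 136 in resting tTregs. Their part in the results below was not tested. Nothing in the labels says that the 3 libraries of a group came from separate animals or cultures, so the p-values measure only the spread between these libraries. In bulk RNA, a lower level per cell and fewer cells that carry the transcript cannot be told apart.

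A gene was called changed where limma, fitted across every gene tested, gave a Benjamini-Hochberg adjusted p under 0.05 and a log2 fold change beyond 0.5 in either direction. Of the 84 genes, 79 passed the filter on low counts. The other 5 (Cox6a2, Cox7b2, Cox8b, Cox8c and Ndufa4l2), which are muscle, testis or hypoxia forms of common subunits, averaged at most 1.22 normalized counts in any group, and Cox7b2 was at 0 throughout. Cox4i2 and Cox7a1 passed only through the iTreg libraries. All 84 were placed on GRCm38 through GENCODE M21. Their principal transcripts were short, with a median of 838 bases against 2964 for the genes tested, and 18 of 79 (22.8%) had a protein-coding gene starting in the opposite direction within 1000 bases, against 11.8% of protein-coding genes tested. Another gene held a stretch at least 95% identical over 100 bases or more for 37 of the 79, so reads of those members can be split with copies or overlapping genes. Among genes named below, it was found for Cox7a2l, Cox7b, Cox5a, Cox5b, Atp5g1, Ndufc1, Uqcrb, Uqcr10 and others. No such stretch was found for Ndufc2, Cox4i2, Cox6b2, Cox7a1, Sdha, Sdhb or Uqcrfs1.

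The 150 bases before the RefSeq start (GRCm38.p6) are given for 4 genes that mark the ends of the responses described below. Ndufc2 and Cox7b rose most in activated Tconvs, Cox7a2l fell, and Cox5a was high in iTregs. None of the 4 windows overlaps an annotated exon, and none holds any of the 5 motifs searched below. By the GENCODE gene bounds the Cox7a2l window lies inside the gene, while those of Ndufc2, Cox7b and Cox5a lie before it.
Ndufc2 (chr7:97399853-97400002, plus strand): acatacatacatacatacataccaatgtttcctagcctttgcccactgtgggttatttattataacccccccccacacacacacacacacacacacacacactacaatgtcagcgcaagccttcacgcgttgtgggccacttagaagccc
Cox7b (chrX:106015550-106015699, plus strand): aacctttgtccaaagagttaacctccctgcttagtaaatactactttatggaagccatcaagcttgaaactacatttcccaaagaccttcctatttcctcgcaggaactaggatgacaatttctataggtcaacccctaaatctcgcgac
Cox7a2l (chr17:83514334-83514483, minus strand): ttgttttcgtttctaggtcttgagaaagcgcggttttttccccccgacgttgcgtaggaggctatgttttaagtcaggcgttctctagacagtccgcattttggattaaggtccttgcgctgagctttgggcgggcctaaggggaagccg
Cox5a (chr9:57521082-57521231, plus strand): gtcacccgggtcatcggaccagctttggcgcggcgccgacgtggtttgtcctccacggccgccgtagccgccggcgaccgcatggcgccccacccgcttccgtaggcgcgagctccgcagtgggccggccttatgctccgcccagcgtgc
RefSeq promoters were matched for 68 of the 84 genes. The letters GCATGCGC (or GCGCATGC on the other strand), a core of the site for NRF1, a factor known for respiratory genes, stood in the 250 bases before the start of 8 of the 66 matched genes that were tested (12.1%) and of 5.2% of 9232 genes tested. The letters CCGGAAGT of the ETS family stood in 4.5% against 7.3%, ATGGCGGC of YY1 in 1.5% against 2.3%, GGGGCGGG of SP1 in 22.7% against 31.9%, and TGACGTCA of CREB in 6.1% against 3.1%, on either strand. The NRF1 letters are shown in capitals with 10 bases on each side, because these 8 genes are the ones that share them. In Atp5g2, Atp5k, Cox6a1 and Ndufa11 the 2 overlapping matches on opposite strands make 1 palindrome.
Atp5g2 (chr15:102671070-102671099, minus strand): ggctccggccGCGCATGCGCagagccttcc
Atp5k (chr5:108434430-108434459, minus strand): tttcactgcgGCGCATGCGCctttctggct
Atp5l (chr9:44920965-44920992, minus strand): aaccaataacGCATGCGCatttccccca
Cox6a1 (chr5:115349101-115349130, minus strand): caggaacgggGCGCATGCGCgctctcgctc
Ndufa11 (chr17:56717692-56717721, plus strand): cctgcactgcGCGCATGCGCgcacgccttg
Ndufa6 (chr15:82354357-82354384, minus strand): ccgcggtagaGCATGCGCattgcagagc
Ndufa8 (chr2:36049329-36049356, minus strand): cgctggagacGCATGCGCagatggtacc
Sdhb (chr4:140961207-140961234, plus strand): agcccagtggGCATGCGCcctacgggcc
These matches describe the letters only, placed by the RefSeq start. By the GENCODE gene bounds, the letters of Atp5g2, Ndufa8 and Sdhb lie inside the gene and those of Atp5k at its edge. No value below was compared between genes with and without them.

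On activation, Tconvs raised most of the nuclear OXPHOS genes. Of the 79 tested, 62 rose and 1 fell, where 24.5% of all 11495 genes tested rose and 25.7% fell. Their median log2 fold change was 0.87 against -0.04 over all genes tested, and in 71 of 79 each activated library lay above each resting library, as was so for 35.4% of genes tested. The share of all normalized counts on the 84 genes was 1.20 to 1.25% in the resting and 1.77 to 1.85% in the activated Tconvs, so the groups did not overlap.

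**Figure D1:**
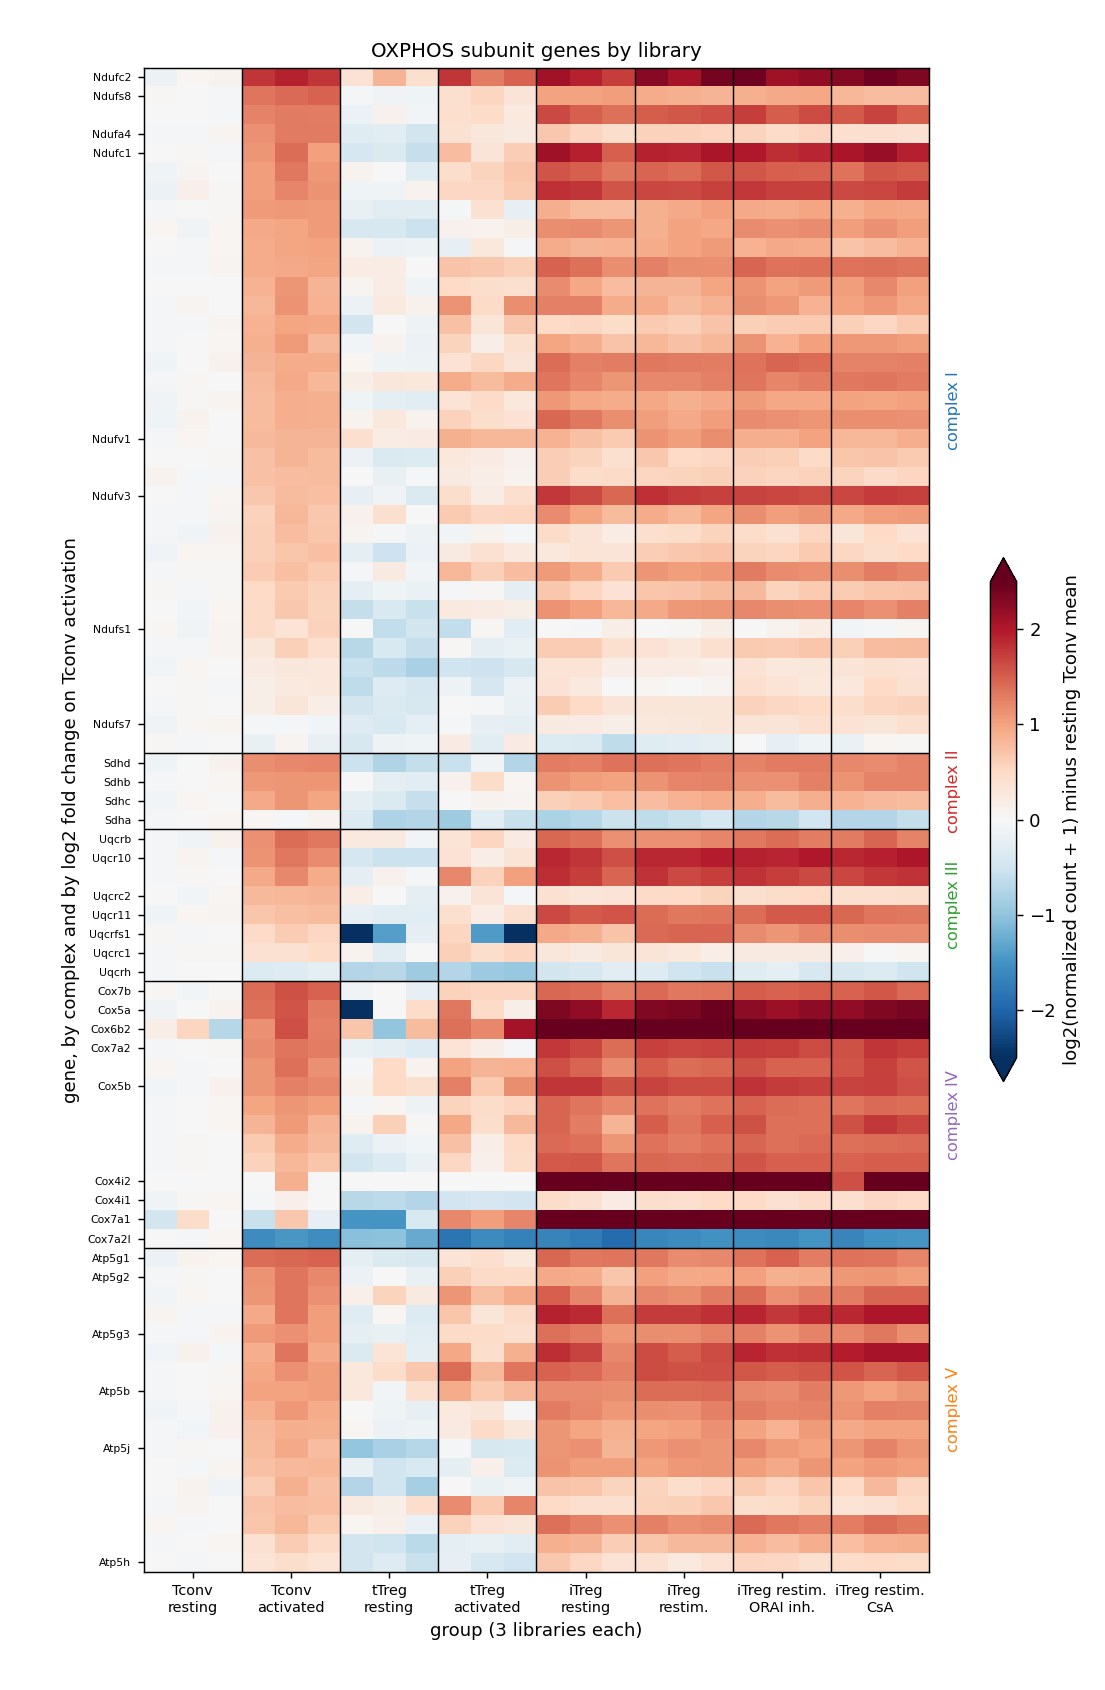
Heat map of the 79 OXPHOS subunit genes tested (rows, by complex) in the 24 libraries (columns, 3 per group). Colour is log2(normalized count + 1) minus the mean of the 3 resting Tconv libraries, cut at 2.5 in either direction, and only some of the rows named in the text are labelled. Most rows are red in activated Tconvs (62 of 79 rose) and in all iTreg groups, while Cox7a2l is blue in every group but resting Tconvs.

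Complex I takes electrons from NADH. In activated Tconvs 29 of its 36 tested genes rose, with a median log2 fold change of 0.86. The largest rise of any OXPHOS gene was that of Ndufc2, an accessory subunit of the membrane arm. It read 208, 235 and 244 normalized counts in resting Tconvs and 788, 872 and 793 in activated Tconvs. All activated libraries were over 3 times the highest resting one (log2 fold change 1.83, SE 0.15, adjusted p = 5.69e-08). Core subunits, some of which carry the flavin and iron-sulfur centres, were among the genes that rose. Ndufs8 read 699 to 730 at rest and 1820 to 1997 after activation (1.41, SE 0.07). Ndufv2, Ndufv1 and Ndufs3 gave log2 fold changes of 1.07, 0.84 and 0.77. Ndufs1, the largest subunit, was at 0.46 (SE 0.16) and Ndufs7 at -0.05 (SE 0.07), neither of them past the threshold of size.

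Complex II, succinate dehydrogenase, also belongs to the TCA cycle. Its iron-sulfur subunit Sdhb read 1682, 1746 and 1811 in resting and 3713, 3731 and 3775 in activated Tconvs, a log2 fold change of 1.10 (SE 0.10). The membrane anchors Sdhc and Sdhd rose by 1.01 (SE 0.09) and 1.20 (SE 0.13). Sdha, the flavoprotein that holds the active site, did not follow its partners: its libraries read 5973 to 6315 at rest and 6018 to 6497 after activation, and the groups overlapped (0.04, SE 0.14, adjusted p = 0.838).

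In complex III, 5 of 8 tested genes rose, with a median of 0.79. The core protein gene Uqcrc2 rose by 0.83 (SE 0.10), and Uqcrc1 was at 0.41 (SE 0.09), under the threshold of size. Uqcrh, the hinge protein, was lower in each activated library (2792 to 3032) than in each resting one (3494 to 3607), at -0.30 (SE 0.08, adjusted p = 0.00378), again under that threshold. Uqcrfs1, the Rieske iron-sulfur protein, read 2062 to 2164 at rest and 2977 to 3283 after activation, without overlap. Its log2 fold change of 0.55 was not called, since the fit shared 1 spread over 15 libraries and the tTreg libraries varied widely for this gene (below). With the spread of the 2 Tconv groups alone the adjusted p was 1.06e-06 instead of 0.608, and for Cox5a, a complex IV subunit at 1.42, it was 6.27e-09 instead of 0.0884.

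Complex IV, cytochrome c oxidase, had 9 rises and 1 fall among 14 tested genes. Cox7b read 939 to 1008 at rest and 2579 to 2963 after activation (1.48, SE 0.08, adjusted p = 5.73e-10). Cox6a1, Cox6b1 and Cox8a, the common forms of subunits that also have tissue-restricted forms, rose by 0.70 (SE 0.11), 1.05 (SE 0.08) and 0.80 (SE 0.13). Cox4i1, the common form of subunit IV, read 5868 to 6382 and 5989 to 6804, and its groups overlapped (0.03, SE 0.08). The fall was that of Cox7a2l, a relative of the Cox7a subunits studied for joining complexes III and IV, a role that was not measured here. It read 13690, 13600 and 14245 in resting Tconvs and 4648, 5031 and 4693 in activated Tconvs. Each activated library was under 40% of each resting library (-1.53, SE 0.09, adjusted p = 1.55e-09). Its paralog Cox7a2 moved the other way, from 961 to 1007 at rest to 2247 to 2495 (1.26, SE 0.11). Per base of transcript, Cox7a2l made up 89.5% ± 0.266 (SD, n = 3) of the 3 Cox7a forms in resting Tconvs and 55.2% ± 0.692 in activated ones. Cox7a2l had the highest level per kilobase of the 79 nuclear OXPHOS genes tested in resting Tconvs.

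ATP synthase had 16 rises among 17 genes tested, with a median of 0.97. Atp5b, its catalytic β subunit, read 8972 to 9519 at rest and 18410 to 18942 after activation (1.02, SE 0.10). Atp5g1, Atp5g2 and Atp5g3 encode the same c-ring protein from separate genes. They rose by 1.43 (SE 0.08), 1.23 (SE 0.08) and 1.09 (SE 0.08). Atp5g1 read 778 to 904 at rest and 2247 to 2370 after activation. Only Atp5h, a stalk subunit, was not called (0.38, SE 0.09).

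Activation of tTregs gave the same direction with fewer calls. Of 79 genes, 39 rose and 1 fell, where 11.9% of all genes tested rose and 10.0% fell, and the median log2 fold change was 0.55 against 0 over all genes tested. The 84 genes took 1.24 to 1.29% of counts in resting and 1.52 to 1.68% in activated tTregs. In complex I 16 of 36 rose, in complex III 4 of 8, in complex IV 8 of 14 and in ATP synthase 11 of 17. Limma, edgeR and DESeq2 each called 0 of the 4 complex II genes, and 2 of the 4 had an unadjusted p under 0.05. Ndufc1, an accessory subunit of complex I, read 162 to 188 at rest and 301 to 409 after activation (1.01, SE 0.15, adjusted p = 0.000214). Cox7a2l fell here as well, from 5770 to 6763 at rest to 3923 to 4577 (-0.59, SE 0.09, adjusted p = 0.000185).

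Isoforms at low level were read from few counts. Cox6b2, known as the testis form of subunit VIb, read 6.35, 1.298 and 6.83 in resting and 10.8, 9.46 and 18.2 in activated tTregs (1.39, SE 0.45, adjusted p = 0.0276), and this call was lost without resting library 2 (adjusted p = 0.122) or activated library 3 (0.105). Cox7a1, the heart and muscle form of Cox7a, was called at 2.26 (SE 0.45), but this rested on 1 read over the 3 resting libraries and 12 reads over the 3 activated ones, a ratio of 14.0 with an exact 95% counting interval of 2.08 to 600.5. Cox4i2 was at 0 in all 6 tTreg libraries.

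The size of the response differed between the 2 cell types. In the interaction term (tTreg response minus Tconv response) 26 of 79 genes were lower and 2 were higher, where 17.0% of all genes tested were lower and 17.7% higher, with a median of -0.34 against 0.05. Uqcrb, a small complex III subunit, read 542 to 622 and 1271 to 1509 in resting and activated Tconvs, but 550 to 681 and 667 to 838 in resting and activated tTregs, which overlapped. The difference was -1.05 (SE 0.16, adjusted p = 0.000137). Sdhd read 584 to 678 in resting and 590 to 929 in activated tTregs, and its difference was -1.02 (SE 0.18, adjusted p = 0.000406). For Ndufs8 it was -0.92 (SE 0.10, adjusted p = 6.37e-06), with 666 to 704 at rest and 896 to 1048 after activation in tTregs. By complex, 14 of 36 complex I genes, 3 of 4 complex II genes and 2 of 8 complex III genes responded less in tTregs. For ATP synthase it was 5 of 17. In complex IV limma called 2 of 14 lower and 2 higher. There edgeR called 5 lower and 2 higher, and DESeq2 called 5 lower and 1 higher. Cox7a2l fell less in tTregs (0.94, SE 0.12, adjusted p = 3.34e-05). Cox7a1 was also past the threshold (2.28, SE 0.64, adjusted p = 0.0108), on 7 reads or fewer over each Tconv group.

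**Figure D2:**
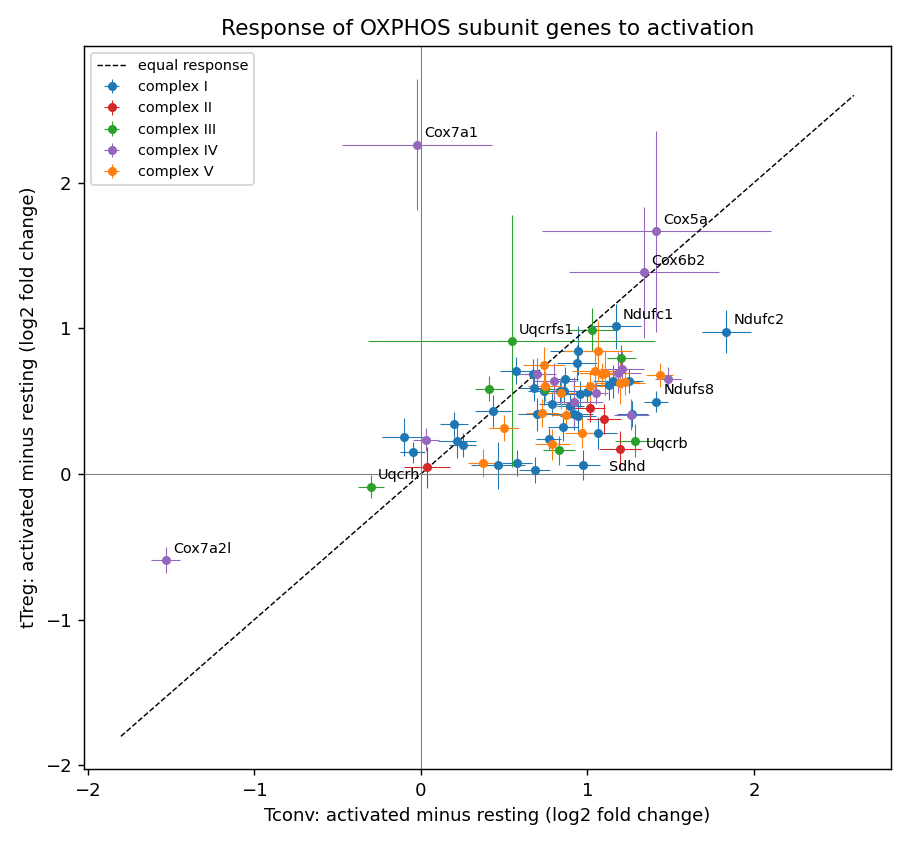
Log2 fold change on activation of 78 OXPHOS subunit genes in Tconvs (x axis) and tTregs (y axis), with bars of 1 SE. Cox4i2, at or near 0 in these 4 groups, is not drawn. Most points lie right of 0 and under the dashed line of equal response (median 0.87 in Tconvs and 0.55 in tTregs), with Cox7a2l at the lower left and wide bars for Uqcrfs1 and Cox5a.

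Before activation, tTregs and Tconvs were closer to each other. Of 79 genes 12 were lower and 1 higher in resting tTregs, where 18.2% of all genes tested were lower and 20.5% higher, so the share of calls among the OXPHOS genes was under the background in both directions. After quantile normalization the 13 calls were 9 lower and 4 higher. The median was -0.17 against -0.02 over all genes tested, so the small differences leaned to lower values in tTregs. Each tTreg library lay under each Tconv library for 35 of 79 genes (29.5% of all genes tested) and above for 6 (29.0%). Resting tTregs held less Cox7a2l (-1.11, SE 0.09), less Atp5j, the coupling factor of the stalk (815 to 972 against 1547 to 1620, -0.83, SE 0.11), and less Uqcrh (1914 to 2206 against 3494 to 3607, -0.77, SE 0.08). Ndufc2 was higher (294, 415 and 303 against 208 to 244, 0.54, SE 0.15), and this call was lost without resting Tconv library 1 (0.47) or resting tTreg library 2 (0.38).

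Among the tTreg libraries 2 genes stood out by their spread. Uqcrfs1 read 80.7, 815 and 1828 in resting tTregs and 3080, 795 and 331 in activated tTregs, a range of 22.6-fold and 9.32-fold within a group. Cox5a read 75.3, 854 and 1191 in resting and 2153, 1205 and 957 in activated tTregs. Over the genes with a mean of at least 100, a range above 3-fold within the group was found for 2 of 76 OXPHOS genes in resting tTregs (all genes tested 3.24%) and 1 of 76 in activated tTregs (1.35%), and for 0 of 76 in each of the other 6 groups (all genes tested at most 0.284%). In resting tTregs the low value of both genes came from library 1, which had 9688361 reads, the most of that group. Activation of tTregs was called for neither gene.

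**Figure D3:**
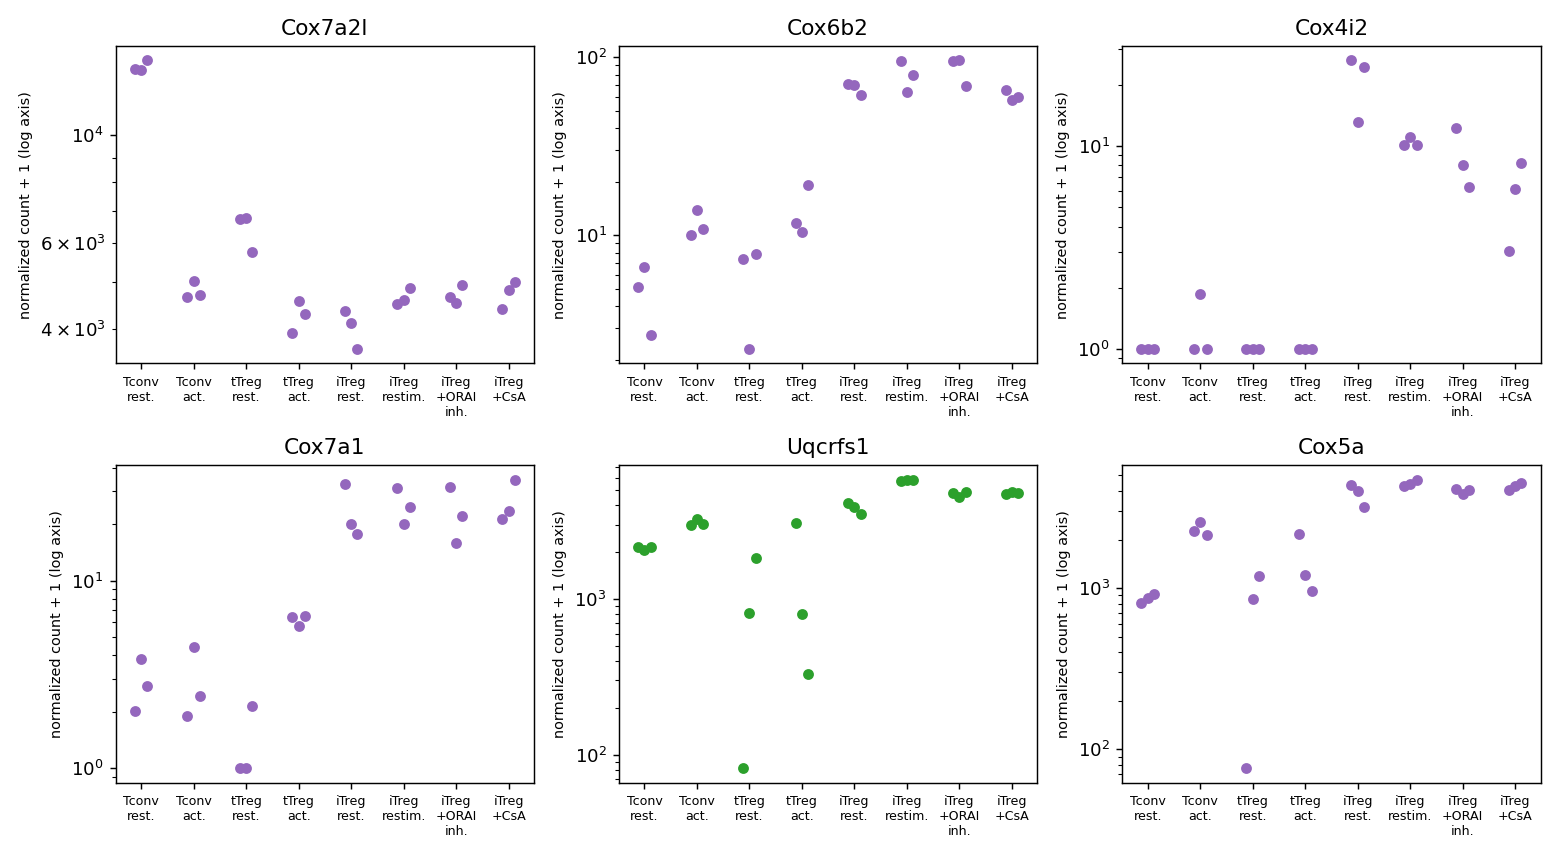
Normalized count plus 1 (log axis) of 6 OXPHOS genes in each of the 24 libraries, 3 points per group. Cox7a2l is highest in resting Tconvs, Cox6b2, Cox4i2 and Cox7a1 are highest in the iTreg groups, and the Uqcrfs1 and Cox5a points are far apart in the tTreg groups.

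Resting iTregs held more OXPHOS transcript than either other resting population. Against resting Tconvs 62 of 79 genes were higher and 2 lower, where 32.8% of all genes tested were higher and 30.8% lower, and the median was 1.06 against 0.02. Against resting tTregs 69 were higher and 1 lower, where 32.3% were higher and 31.1% lower, with a median of 1.16 against 0.02. Both comparisons share the resting iTreg libraries. Both counts of higher genes include Cox4i2 and Cox7a1, which the filter admitted only through the iTreg libraries. The 84 genes took 1.85 to 2.06% of counts in resting iTregs, above each library of resting Tconvs (1.20 to 1.25%) and of resting tTregs (1.24 to 1.29%).

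Rare isoforms of complex IV had the largest fitted differences, and 2 of them, Cox4i2 and Cox7a1, were tested only because the iTreg libraries passed the filter, so that they had to differ. Their values are a description. Cox4i2, known as the lung and low-oxygen form of subunit IV, read 25.3, 12.1 and 23.5 in resting iTregs and 0 in all resting Tconv and tTreg libraries. Set against the 3-read floor of the resting Tconv libraries it was at least 7.14-fold higher in iTregs. Cox6b2 read 69.6, 68.6 and 60.7 against 4.11, 5.63 and 1.76 in resting Tconvs, 17.4-fold by reads (214 against 12, exact 95% counting interval 9.75 to 34.2). Cox7a1 read 31.6, 19.2 and 16.7 against 1.03, 2.81 and 1.76, 11.5-fold by reads (71 against 6, 5.05 to 32.5). These isoforms stayed minor. Per base of transcript Cox6b2 was 1.99% ± 0.0663 (SD, n = 3) of the Cox6b pair in resting iTregs and 0.297% ± 0.153 in resting Tconvs, Cox4i2 was 0.269% of the Cox4 pair, and Cox7a1 was 0.668% of the Cox7a forms. These intervals cover counting error only.

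Among the common subunits, resting iTregs exceeded resting Tconvs for Cox5a (2.14, SE 0.69, with the wide tTreg spread in the fit), Ndufc2 (1.92, SE 0.15), Ndufc1 (1.86, SE 0.15), Uqcr10 (1.76, SE 0.09) and Cox5b (1.72, SE 0.14). By complex, 27 of 36 tested genes were higher in complex I, 3 of 4 in complex II, 4 of 8 in complex III, 16 of 17 in ATP synthase and 12 of 14 in complex IV, the last count including Cox4i2 and Cox7a1. Some core subunits were not called: Ndufs1 was at 0.05 (SE 0.16) and Ndufs7 at 0.19 (SE 0.07), and the complex III core genes Uqcrc1 and Uqcrc2 were at 0.27 (SE 0.09) and 0.35 (SE 0.10), under the threshold of size. Cox7a2l and Sdha were lower in iTregs. Cox7a2l read 4358, 4123 and 3639, against 13600 to 14245 in resting Tconvs (-1.78, SE 0.09). Sdha read 3555, 3725 and 4247 against 5973 to 6315 (-0.68, SE 0.14, adjusted p = 0.000433), while Sdhb, Sdhc and Sdhd were higher by 1.06, 0.67 and 1.29.

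Since iTregs had been stimulated for 4 days, they were also set against activated Tconvs, a comparison that uses the same resting iTreg libraries. Here 14 of 79 were higher and 2 lower, where 22.9% of all genes tested were higher and 18.7% lower, and the median was 0.16 against 0.02. The share of members called in either direction was under that background. After quantile normalization 9 were higher and 5 lower. The 14 include Cox4i2 and Cox7a1, which the filter admitted through the iTreg libraries. Among the other genes, the larger differences were Cox6b2 at 2.55 (SE 0.45), Ndufv3 at 0.88 (SE 0.10) and Uqcr11 at 0.84 (SE 0.08). Sdha was lower at -0.72 (SE 0.14), and Ndufa4, now counted as a complex IV subunit, read 1710 to 2004 against 2796 to 3113 (-0.70, SE 0.08).

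**Figure D4:**
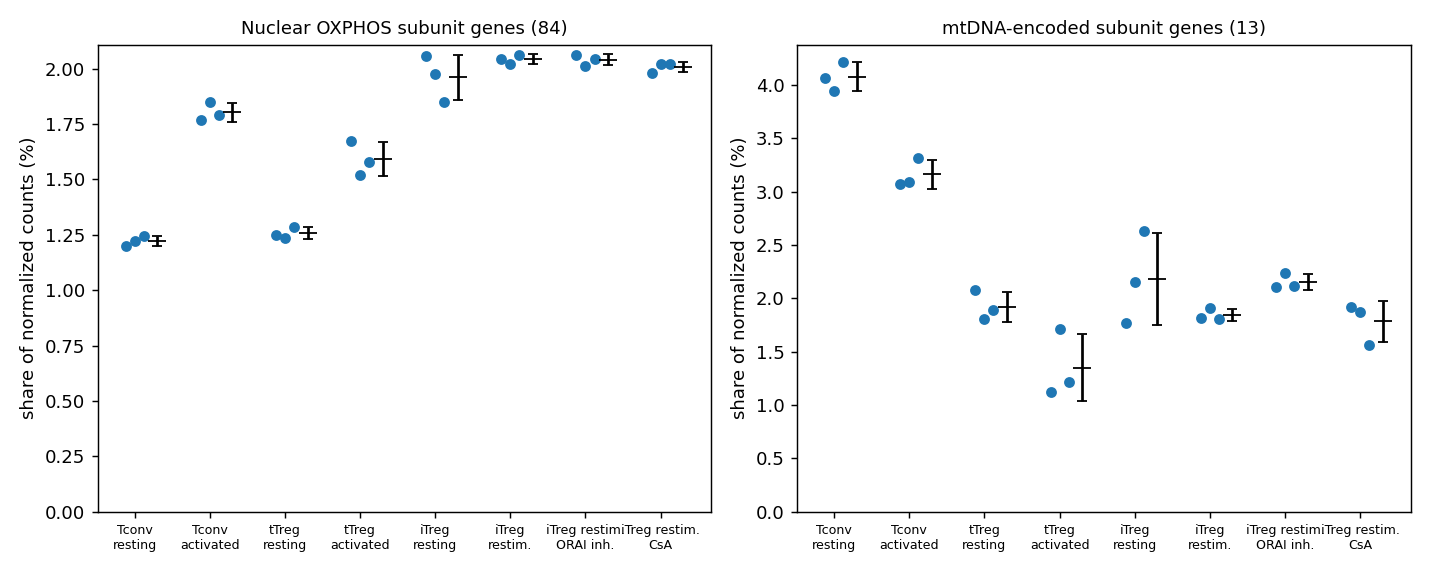
Share of normalized counts (y axis, %, from 0) on the 84 nuclear OXPHOS genes (left) and on the 13 mtDNA-encoded subunit genes (right), by group. Points are libraries, and the bar beside them is the mean with 1 SD (n = 3). The nuclear share is 1.22% in resting and 1.80% in activated Tconvs, while the mtDNA share is 4.08% and 3.16%.

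The 13 OXPHOS subunits that are encoded by the mitochondrial genome were not called higher on activation. They took 3.95 to 4.22% of counts in resting Tconvs and 3.07 to 3.32% in activated ones, and 1.80 to 2.08% and 1.13 to 1.72% in resting and activated tTregs. In the fit on Tconv activation limma called 0 of the 13, as did edgeR and DESeq2, with a median of -0.30 and 4 at an unadjusted p under 0.05. On tTreg activation 2 of the 13 fell, mt-Co1 (-0.63, SE 0.17) and mt-Nd4 (-0.59, SE 0.17), where 10.0% of all genes tested fell. Resting iTregs had 11 of 13 lower than resting Tconvs (median -0.84), where 30.8% of all genes tested were lower. Resting tTregs also had 11 of 13 lower than resting Tconvs (median -1.08), where 18.2% were lower. In resting iTregs 4 of 13 were higher than in resting tTregs, a share near the 32.3% of all genes tested. These comparisons share groups. Libraries were made from polyadenylated RNA, and mitochondrial transcripts carry short tails, so these shares depend on capture.

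Other genes of the pathway were counted from lists. On Tconv activation 24.5% of all genes tested rose and 25.7% fell, and each list is to be read against these shares. The 7 tested genes of ADP, ATP and phosphate transport, a list that also holds porins and a mitochondrial creatine kinase, rose. The largest fitted change was that of the creatine kinase gene Ckmt1, whose resting mean of 0.585 normalized counts lay under the 3-read floor, so no fold is given for it. Of the assembly factors, 10 of 18 rose and 1 fell for complex I, 4 of 10 rose and 2 fell for complexes II and III, 7 of 22 rose and 1 fell for complex IV, and 3 of 5 rose for ATP synthase. Among them Cox15, which makes heme a, rose by 1.27 (SE 0.15) and Cox11, a copper chaperone, was lower at -0.58 (SE 0.22). For electron carriers and their synthesis 10 of 15 rose and 1 fell, with Coq4 at 1.93 (SE 0.18) and Coq8a at -0.95 (SE 0.16), both of the ubiquinone pathway. In the TCA cycle 9 of 14 rose, led by Suclg1 (1.42, SE 0.07), and of the cristae genes 10 of 15 rose, led by Chchd6 (2.07, SE 0.20).

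Genes that feed or control respiration were counted in the same way. Of 10 regulators of respiratory gene transcription, 1 rose, the coactivator gene Pprc1 (0.63, SE 0.19), and 4 fell, with Yy1 lowest (-1.25, SE 0.11). Of 11 genes of pyruvate entry, 1 rose and 3 fell, while edgeR and DESeq2 each called 3 rises and 3 falls. The limma calls were led by the carrier Mpc1 (0.85, SE 0.11) and by Pdk1, the kinase that switches off pyruvate dehydrogenase (-2.22, SE 0.20). Of the genes of mtDNA replication and transcription 3 of 14 rose, a share near the 24.5% of all genes tested. Of 3 tested subunits that the symbol rule does not take, 2 rose, among them Ndufab1 (1.35, SE 0.39).

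On restimulation of iTregs few OXPHOS genes passed the thresholds. Of 79 genes 1 rose and 0 fell by limma, where 12.8% of the 11105 genes tested in these 12 libraries changed in either direction. edgeR called 1 rise and 1 fall, DESeq2 1 rise and 0 falls, and 27 of 79 had an unadjusted p under 0.05. The median log2 fold change was 0.03, and for 71 of 79 genes the 95% interval lay within 0.5 on either side of 0. The share of counts was 1.96% ± 0.103 (SD, n = 3) in resting and 2.04% ± 0.0223 in restimulated iTregs, which overlapped.

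The 1 gene was Uqcrfs1. It read 4123, 3924 and 3504 in resting and 5694, 5842 and 5846 in restimulated iTregs, so the groups did not overlap (0.59, SE 0.06, adjusted p = 2.87e-06). With the tTreg libraries in a fit of all 24, where the shared spread is wide, the adjusted p was 0.64. With the ORAI inhibitor it read 4828, 4552 and 4871, and with CsA 4737, 4854 and 4823, each library under each restimulated one and above each resting one. Its promoter held the CREB letters TGACGTCA, as did those of Ndufa10, Ndufa11 and Ndufb2, none of which was called on restimulation. Ndufa10 was at 0.16 (adjusted p = 0.0376) and Ndufb2 at -0.29 (adjusted p = 0.0346), while Ndufa11 had no adjusted p under 0.05. A link between these letters and the response was not tested. The Uqcrfs1 letters, given in capitals, lie before the RefSeq start but inside the GENCODE gene bounds.
Uqcrfs1 (chr13:30545328-30545355, minus strand): ggcgtcgcgcTGACGTCAcaaaccctgc
Without the threshold of size 15 genes had an adjusted p under 0.05 on restimulation, 10 of them upward. Among these were Ndufv1 (0.36, SE 0.06) and Atp5b (0.23, SE 0.05) upward, and Ndufb7 (-0.29, SE 0.06) and Uqcr11 (-0.24, SE 0.06) downward. Cox4i2 read 9.06, 10.1 and 9.08 after restimulation, each under the lowest resting library (12.1), at -0.97 (SE 0.43, adjusted p = 0.107), which was not called.

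With either inhibitor no OXPHOS gene passed both thresholds. Against restimulated iTregs, limma, edgeR and DESeq2 each called 0 of 79 for the ORAI inhibitor, where 3.3% of all genes tested changed, with 16 at an unadjusted p under 0.05. For CsA each called 0 of 79, where 2.92% changed, with 22 at an unadjusted p under 0.05. Both comparisons share the restimulated libraries. Each ORAI inhibitor library lay above each restimulated one for 26 of 79 genes (13.8% of all genes tested) and under for 7 (12.5%). With CsA it was 25 above (14.0%) and 14 under (14.9%). The shifts were small, with a median log2 fold change of 0.04 for each inhibitor. The 95% interval lay within 0.5 on either side of 0 for 74 (ORAI inhibitor) and 72 (CsA) of 79 genes. Uqcrfs1 was lower by a log2 fold change of -0.29 (SE 0.06, adjusted p = 0.00645) with the ORAI inhibitor and -0.27 (SE 0.06, adjusted p = 0.0101) with CsA. Atp5b was lower by -0.18 (SE 0.05) and -0.33 (SE 0.05), and Ndufa3, an accessory complex I subunit, was higher by 0.32 (SE 0.08) and 0.38 (SE 0.08), all with an adjusted p under 0.05 and under the threshold of size.

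The ORAI inhibitor and CsA, which act at successive steps of the calcium pathway, were also set against each other. All 3 tools called 0 of 79 OXPHOS genes, where 0.36% of all genes tested changed, with 5 at an unadjusted p under 0.05. The interval lay within 0.5 on either side of 0 for 76 of 79, the exceptions being Cox4i2, Cox6b2 and Cox7a1. For Uqcrfs1 the difference was -0.02 (95% interval -0.15 to 0.12). The mtDNA-encoded mt-Co3, a complex IV core subunit, was at -0.78 (SE 0.17) on restimulation and was called higher with the ORAI inhibitor than without (1.09, SE 0.17). With CsA it was at 0.46 (SE 0.17, adjusted p = 0.108), which was not called. The ORAI inhibitor against CsA, at 0.63 (SE 0.17, adjusted p = 0.122), was not called for mt-Co3 either.

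On restimulation 6.70% of all genes tested were higher and 6.13% lower. Of the pathway lists, complex I assembly had 2 of 18 higher, complex II and III assembly 2 of 10, complex IV assembly 1 of 22 and the electron carriers 1 of 15, while pyruvate entry had 2 of 11 lower and the mtDNA-encoded subunits 2 of 13 lower. Nubpl (complex I assembly, 0.89, SE 0.18), Sdhaf3 (complex II assembly, 0.80, SE 0.17), Sco1 (a copper chaperone of complex IV, 1.24, SE 0.23) and Coq3 (ubiquinone synthesis, 0.58, SE 0.12) were the largest rises of their lists, and Pdk1 the largest fall in pyruvate entry (-0.54, SE 0.18).

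**Figure D5:**
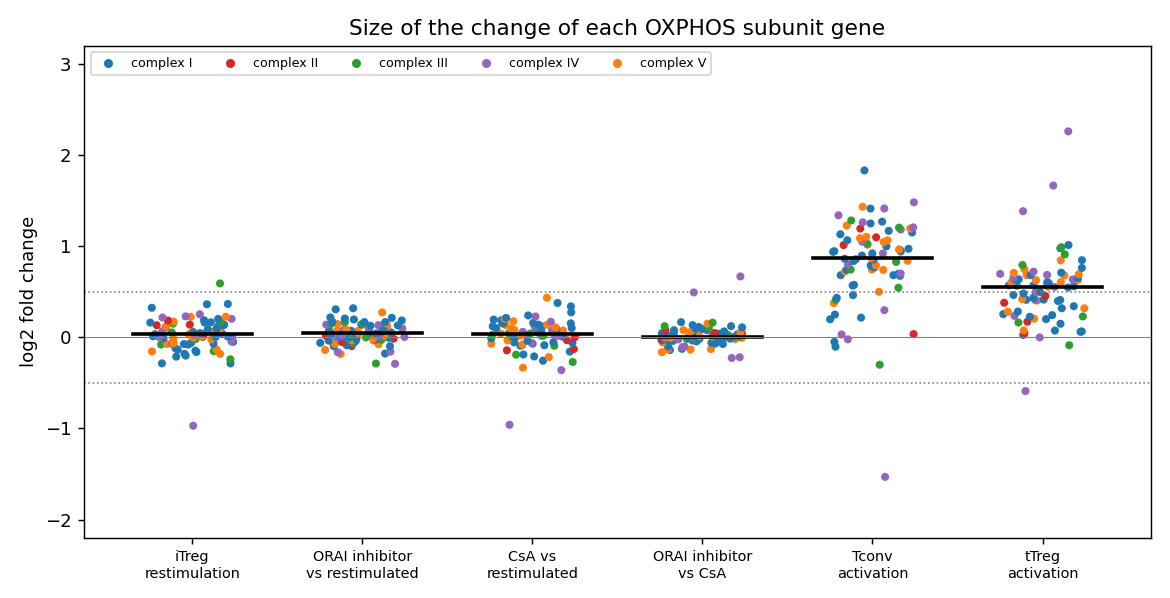
Log2 fold change (y axis) of each of the 79 tested OXPHOS genes in the 4 iTreg comparisons and, for scale, in Tconv and tTreg activation. Points are genes coloured by complex, black bars are medians, and dotted lines mark 0.5 in either direction. The medians are 0.03, 0.04, 0.04 and 0.01 in the iTreg comparisons against 0.87 and 0.55 on activation.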

How the data were processed

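Poly(A)+ RNA of sorted live cells was amplified by a modified SMART-seq2 protocol. The authors trimmed reads with cutadapt 1.18, aligned them to mm10 with STAR 2.5.3 and counted them per gene with RSEM 1.3.0, and they deposited 1 table of gene counts divided by 1 size factor per library (called normalized counts here, a signal that is never negative). Each library was whole multiples of 1 step to within 0.01 read for 100% of values, so reads per gene were recovered. The values are unlogged, and the amplified reads carry no molecular identifiers. The ATAC-seq and CUT&Tag files were not used here.

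Here, log2(normalized count + 1) was fitted with limma 3.58.1 (R 4.3.3) with 1 mean per group, and p-values were adjusted by Benjamini-Hochberg over all genes with 10 or more normalized counts in at least 3 libraries. One fit held the 15 Tconv, tTreg and resting iTreg libraries (7 comparisons) and another the 12 iTreg libraries (4 comparisons). A fold change is on the scale of log2(value + 1), which understates the change of low genes. Alternatives were 2 other scalings, pseudocounts of 0.1 and 5, other filters, other sample sets, a replicate block, each library left out, and edgeR 4.0.16 and DESeq2 1.42.0 on recovered reads. Intervals of a log2 difference used 8 residual degrees of freedom. The floor was 3 reads per library. The fit was tested on simulated reads with 1 spread setting for all genes. For Tconv activation it recovered 98 of 100 2-fold changes, with 18 false calls among 11501 genes. For iTreg restimulation it recovered 99 of 100, with 7 false calls among 11103. The wide spread of some genes in the tTreg libraries was not simulated, and tTreg activation and the interaction were not tested this way.

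The members and lists were chosen with earlier results of these data known. Genes were named by role (complex II, core subunits, paralogous isoforms) and by value (per comparison, the 3 largest rises and falls among called genes with libraries that did not overlap, without the last condition for the interaction). For the pathway lists, the largest rise and fall of a list were named for Tconv activation and iTreg restimulation. Cox5a, Atp5b and the other genes named outside these rules were chosen after their values were seen. One gene that the role rule names is not reported here by name. Gene models are from GENCODE M21 and sequences from RefSeq (GRCm38.p6), by symbol.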

Additional observations from a re-analysis of the deposited data

Results flagged for a closer look

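The response to activation differed between tTregs and Tconvs by a test of the difference itself (limma interaction, adjusted p under 0.05 and a log2 difference beyond 0.5) for 28 OXPHOS subunit genes. The named ones were Uqcrb (-1.05), Sdhd (-1.02) and Ndufs8 (-0.92), which rose less in tTregs, Cox7a2l (0.94), which fell less, and Cox7a1 (2.28), which rests on few reads and was not called by DESeq2 (adjusted p = 0.0704). No group has the 4 samples that a test for a stray library needs.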

How the results depend on the processing

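No called gene or count changed its direction under the alternatives run. The OXPHOS median of the ORAI inhibitor against CsA, 0.0072, was -0.0031 with libraries rescaled within the fit. Without the threshold of size, the number of changed genes was 15 instead of 1 for iTreg restimulation, 4 instead of 0 for the ORAI inhibitor, 11 instead of 0 for CsA, 45 instead of 16 for resting iTregs against activated Tconvs and 32 instead of 13 for resting tTregs against resting Tconvs, since more small differences then count. For iTreg restimulation, edgeR called 2 and the fit of all 24 libraries 0, the latter with the wide spread of Uqcrfs1 in tTregs. The other counts of changed OXPHOS genes stayed within 1.5 times under the alternatives run. Leaving out 1 library kept 1 call for iTreg restimulation and 0 for each inhibitor comparison, and gave 62 to 64 calls for Tconv activation, 40 to 43 for tTreg activation, 22 to 30 for their difference, 12 to 13 for resting tTregs against Tconvs, and 57 to 65, 11 to 17 and 67 to 72 for resting iTregs against resting Tconvs, activated Tconvs and resting tTregs. Quantile normalization moved the median of all genes by over 0.1 in the 3 resting iTreg comparisons (to -0.12, -0.11 and -0.10), where the OXPHOS medians were 0.91, 0.09 and 1.02 before that shift is taken off.

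Groups share replicate numbers. The check for pairing asked that every same-numbered pair of deviations correlate above 0.1. It was met in 0 of 10 pairs of groups in the 15 libraries and 0 of 6 in the 12 libraries. Since it needs every pair, it cannot exclude weaker pairing. The mean same-number correlation ranged from -0.268 to 0.157 in the 15 libraries. In the 12 iTreg libraries it was 0.121 to 0.179, against -0.089 to -0.060 for different numbers. With the replicate block the calls were 63 for Tconv activation, 40 for tTreg activation, 27 for their difference, 13 for resting tTregs against Tconvs, 64, 15 and 70 for resting iTregs against resting Tconvs, activated Tconvs and resting tTregs, 1 for iTreg restimulation and 0 for each of the 3 inhibitor comparisons. Depth limits Cox4i2, Cox6b2 and Cox7a1, with at most 214 reads over the resting iTreg libraries and 12 over the resting Tconv libraries.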
